A study of Rattus norvegicus with 43 samples.

Results

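The 9 genes described here belong to the epidermal growth factor (EGF) and fibroblast growth factor (FGF) systems, measured in the anterior pituitary gland. Tgfa, Egf and Areg encode ligands of the EGF receptor, Egfr, Erbb2 and Erbb3 encode receptors of that family, and Fgf2 encodes an FGF whose receptors are encoded by Fgfr1 and Fgfr2. They were chosen by gene symbol and make up 9 of 14217 genes and 17 of 31099 probe sets. A probe set is a group of short probes read as 1 value, and one was used where the annotation gave it a single gene symbol. The probe set with the highest mean represented its gene, and the others are given beside it.

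The animals were 43 male F2 rats from an intercross of Copenhagen (COP) females and ACI males. All had carried an implant with 5 mg of diethylstilbestrol (DES), a synthetic estrogen, from the age of 9 weeks for 12 weeks, and were sacrificed at 21 weeks, 4 h after BrdU (50 mg/kg), a label of dividing cells. They had been picked as the 22 heaviest and 21 lightest pituitaries of their population, but no label ties an animal to a class. The 43 arrays were therefore treated as 1 group, untreated rats and genotypes were not analysed here, and the values describe treated animals of selected weight. Animals go by the number in their labels. No label says what that number stands for, so relations are also given within animals 1 to 22 and within animals 23 to 43.

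EGF family ligands are made as membrane precursors and are released by proteases such as Adam17. They bind Egfr, which pairs with itself or with Erbb2 or Erbb3 and signals through Ras and ERK and through PI3 kinase and Akt. Fgf2 binds its receptors together with heparan sulphate, and these reach the same kinases through the docking protein Frs2. In cultured pituitary cells EGF is known to raise expression of prolactin, the hormone of the lactotroph, a cell type that estrogens expand in the rat.

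The tissue label was checked against markers. Prl, the prolactin gene, averaged 15.61 ± 0.14 (SD, n = 43) on the scale used throughout, log2(intensity + 16), on which changes of dim probe sets look smaller than they are. Of 7 posterior lobe and neural markers, Avp, Oxt, Rax and Nkx2-1 had median intensities of 18.2, 16.7, 49.2 and 43.7. These were below the filter described further on, while the other 3 (Mbp, Syn1 and Nefl) were above it. Pcsk2 was above it among 3 corticotroph and melanotroph genes, and Pomc and Tbx19 were not. In whole tissue, fewer cells of a type and less RNA per cell cannot be told apart. The array of animal 43 differed from the rest in quality. Its actin signal was 1.97 log2 units stronger at the 3′ end than at the 5′ end, where the other 42 arrays had 1.26 to 1.67, and results that rest on it are given with and without it.

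The promoters of Egfr and of its 3 ligands are printed because the level of the receptor is set against those of its ligands further on. RefSeq sequences of build GRCr8, with 250 bases before and 50 bases after the annotated start, were found for 7 of the 9 genes, all but Erbb3 and Fgfr1. Capitals mark matches on either strand to the GC box GGGCGG, the TATA box TATAAA and the cAMP response element TGACGTCA.
Egfr, chr14:95378376-95378675, plus strand: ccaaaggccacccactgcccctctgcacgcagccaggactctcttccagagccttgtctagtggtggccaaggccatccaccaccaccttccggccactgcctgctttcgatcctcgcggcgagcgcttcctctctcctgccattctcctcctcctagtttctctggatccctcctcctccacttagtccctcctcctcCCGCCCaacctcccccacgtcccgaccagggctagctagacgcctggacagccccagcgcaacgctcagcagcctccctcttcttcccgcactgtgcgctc
Tgfa, chr4:120175469-120175768, plus strand: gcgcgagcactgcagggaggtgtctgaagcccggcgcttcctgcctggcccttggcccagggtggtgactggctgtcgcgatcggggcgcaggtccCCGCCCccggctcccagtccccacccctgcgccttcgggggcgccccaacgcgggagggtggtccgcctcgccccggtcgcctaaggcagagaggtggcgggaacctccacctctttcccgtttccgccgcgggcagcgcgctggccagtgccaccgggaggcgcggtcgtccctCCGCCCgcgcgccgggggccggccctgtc
Egf, chr2:220976248-220976547, minus strand: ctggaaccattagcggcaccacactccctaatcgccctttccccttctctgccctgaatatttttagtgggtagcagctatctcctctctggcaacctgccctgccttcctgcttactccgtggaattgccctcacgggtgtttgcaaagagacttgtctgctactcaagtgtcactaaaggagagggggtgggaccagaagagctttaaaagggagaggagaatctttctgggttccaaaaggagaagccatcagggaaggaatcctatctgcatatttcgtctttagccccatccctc
Areg, chr14:17265592-17265891, minus strand: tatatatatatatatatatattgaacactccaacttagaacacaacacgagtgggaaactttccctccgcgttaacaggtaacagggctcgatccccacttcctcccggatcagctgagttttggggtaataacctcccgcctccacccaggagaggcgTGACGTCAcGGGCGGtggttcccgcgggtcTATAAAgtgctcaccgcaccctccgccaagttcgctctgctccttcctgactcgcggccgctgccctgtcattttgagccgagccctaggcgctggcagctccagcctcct
The window of Areg held 1 match to each motif, with the GC box beside the cAMP response element, without overlap, and the TATA box nearer the start. That of Tgfa had 2 GC boxes and that of Egfr had 1, both without a TATA box, and that of Egf had none of the motifs. Over 33469 rat windows of this length, 33.1% held the GC box, 14.2% the TATA box and 1.83% the cAMP response element. The estrogen response element GGTCANNNTGACC, also searched on both strands, was in 0.0269% of all windows and in none of the 7. The G and C content was 76.7% for Tgfa, 64.3% for Egfr, 56% for Areg and 51% for Egf. A match describes the letters of the sequence and is not a measured binding site.

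Members of both systems were above the filter on dim probe sets, which was set at the median of the mean levels, 7.16. Tgfa, Egf, Egfr, Fgfr1 and Fgfr2 passed, 5 of 9 genes, and Areg, Erbb2, Erbb3 and Fgf2 did not. Over all genes 66.2% passed. How well a probe set reports its transcript was not tested. A dim probe set is therefore not read as an absent transcript, and levels are not compared between genes.

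**Figure D1:**
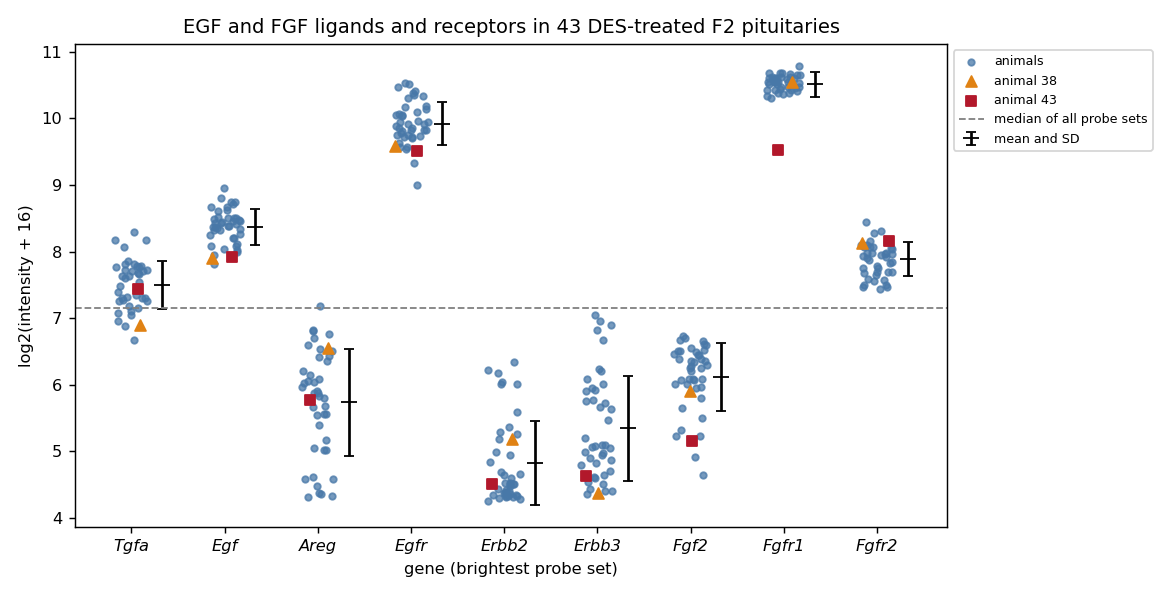
Log2(intensity + 16) (y axis) of the representative probe set of each gene (x axis). Points are the 43 animals, bars means and error bars SD, and the dashed line is the filter at 7.16. Animal 43 lies below all other animals for Fgfr1, at 9.53.

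Among the EGF ligands, Egf was above the filter level in every animal. Its lowest level was 7.81 (animal 17), its median 8.39 and its highest 8.95 (animal 8), with a mean of 8.37 ± 0.27 (SD, n = 43). The highest level was 2.2-fold the lowest on this scale. Ranked by SD among the 200 probe sets nearest to it in level, Egf lay at the 61.5th percentile.

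Tgfa, which like Egf acts through Egfr, lay closer to the filter. Its lowest level was 6.68 (animal 4), its median 7.48 and its highest 8.29 (animal 14), with a mean of 7.50 ± 0.37 (SD, n = 43) and 7 animals below 7.16. A second probe set averaged 6.89 ± 0.53 and did not pass. As a description, both had an r of 0.145 and a rho of 0.323 with each other over the 43 animals, so the order of the animals by Tgfa depended on the probe set read.

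Areg, the gene of amphiregulin, was dim. Its lowest level was 4.31 (animal 1), its median 5.88 and its highest 7.19 (animal 33), with a mean of 5.73 ± 0.80 (SD, n = 43). Animal 33 alone exceeded 7.16. The median intensity was 42.7, to which 16 was added as in all values.

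Egfr was bright, and its spread depended on the probe set. By the first, the lowest level was 9.00 (animal 13), the median 9.88 and the highest 10.54 (animal 2), with a mean of 9.92 ± 0.33 (SD, n = 43). The intensities behind the extremes were 497 and 1468, a 2.89-fold range on the log2(intensity + 16) scale, and the SD lay at the 92nd percentile of probe sets of like level. A second probe set averaged 9.58 ± 0.17 (SD, n = 43), with an SD at the 17.5th percentile, and the last one, below the filter, 5.53 ± 0.67. The r of the first was 0.335 with the second and 0.266 with the last.

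Erbb2, a receptor with no known ligand of its own, and Erbb3, a receptor with little kinase activity, act as partners of the other family members. Erbb2 had its lowest level at 4.26 (animal 15), its median at 4.52 and its highest at 6.34 (animal 29), with a mean of 4.83 ± 0.63 (SD, n = 43). Erbb3 had its lowest level at 4.36 (animal 42), its median at 5.08 and its highest at 7.04 (animal 14), with a mean of 5.35 ± 0.79 (SD, n = 43). Neither exceeded 7.16 in any of the 43 animals, and the median intensities were 6.9 for Erbb2 and 17.9 for Erbb3. The Erbb2 values were described by a lower cluster and a higher one of 15 animals, without a clear gap. Animal 1 was the highest of the lower cluster at 4.69, and animal 39 the lowest of the higher one at 4.84. Both clusters lay below the filter and are not read as 2 groups of animals. No r of Erbb2 with a named gene is given, and only its highest r with a chromosome neighbour follows further on.

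Fgf2, the FGF ligand, was below 7.16 in every animal. Its lowest level was 4.65 (animal 37), its median 6.26 and its highest 6.74 (animal 5), with a mean of 6.11 ± 0.51 (SD, n = 43).

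Fgfr1 was bright and even between animals, with 1 exception. Its lowest level was 9.53 in animal 43 and the next lowest 10.30 in animal 14, with a median of 10.55 and a highest level of 10.79 in animal 13. The mean was 10.51 ± 0.19 (SD, n = 43), and the SD was 0.11 in the 42 other animals. A second probe set averaged 9.55 ± 0.30 (SD, n = 43) and was also lowest in animal 43, at 8.24, with the next lowest at 9.12. In the 42 other animals the r between both was 0.521. The low value of animal 43 was thus seen by both probe sets.

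Fgfr2 varied little by its brightest probe set. Its lowest level was 7.44 (animal 22), its median 7.93 and its highest 8.45 (animal 28), with a mean of 7.89 ± 0.25 (SD, n = 43) and an SD at the 22nd percentile of probe sets of like level. The 4 other probe sets averaged between 4.80 and 6.39 and did not pass. Their r with the first lay between -0.00928 and 0.327, and no other probe set above the filter reports on Fgfr2 here.

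Whether ligands and receptors varied together between animals was examined by regressing all probe sets above the filter on the level of each gene in turn with limma, with p-values adjusted over the whole table. No pair was called. Of 10 pairs among the 5 genes above the filter 0 passed in both fits that link them, 1 had an unadjusted limma p under 0.05 and 1 a permutation p under 0.05. In these fits 0% of all probe sets were called on Tgfa, 0.979% on Egf, 3.05% on Egfr, 36.3% on Fgfr1 and 0% on Fgfr2.

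For Egf and its receptor Egfr the r was 0.183 (permutation p = 0.237) and the rho 0.221 (permutation p = 0.153). Leaving out the 2 animals farthest from the median of Egf gave 0.222, animals 1 to 22 gave 0.0897 and animals 23 to 43 gave 0.407, and the adjusted p were 0.53 and 0.652 (limma). For Tgfa and Egfr the r was -0.121 (permutation p = 0.438) and the rho -0.0417 (permutation p = 0.791). It was -0.109 without the 2 animals farthest in Tgfa, -0.243 in animals 1 to 22 and 0.0979 in animals 23 to 43, with adjusted p of 0.9 and 0.792 (limma). Neither relation passed the threshold.

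The pair with the lowest permutation p of the 10 was Egf and Fgfr1, with adjusted p of 0.274 and 0.0835 over 43 animals (limma). In the 42 animals without animal 43 its r was 0.175 (permutation p = 0.267) and its rho 0.187. Among the receptors, Egfr and Fgfr1 had an r of 0.0932 in those 42 animals (permutation p = 0.558), and Fgfr1 and Fgfr2 one of -0.0953 (permutation p = 0.547).

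With no filter, all 36 pairs could be tested and again 0 were called by limma, with 4 at an unadjusted p under 0.05 and 4 by permutation. The share of all probe sets called was 0.00644% on Egf, 1.23% on Egfr, 0.00322% on Erbb3, 0.00322% on Fgf2, 16.4% on Fgfr1 and 0% on each of the other 4 genes. Egf and Erbb3 had the highest r of the 36, 0.436 (permutation p = 0.00331), with a rho of 0.364 (permutation p = 0.0166). It was 0.355 without the 2 animals farthest in Egf, 0.383 in animals 1 to 22 and 0.397 in animals 23 to 43, and the adjusted p were 0.199 and 0.301 (limma). The relation had 1 sign in both ranges of animal numbers, but it rests on a probe set of Erbb3 that was below 7.16 throughout.

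Fgf2 and its receptors gave no call either. With Fgfr1, Fgf2 had an r of 0.249 in the 42 animals without animal 43 (permutation p = 0.113). With Fgfr2 it had an r of -0.27 in all 43 animals (permutation p = 0.0815) and a rho of -0.245 (permutation p = 0.115). That r was -0.206 without the 2 animals farthest in Fgf2, -0.0298 in animals 1 to 22 and -0.327 in animals 23 to 43, with adjusted p of 0.61 and 0.603 (limma).

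**Figure D2:**
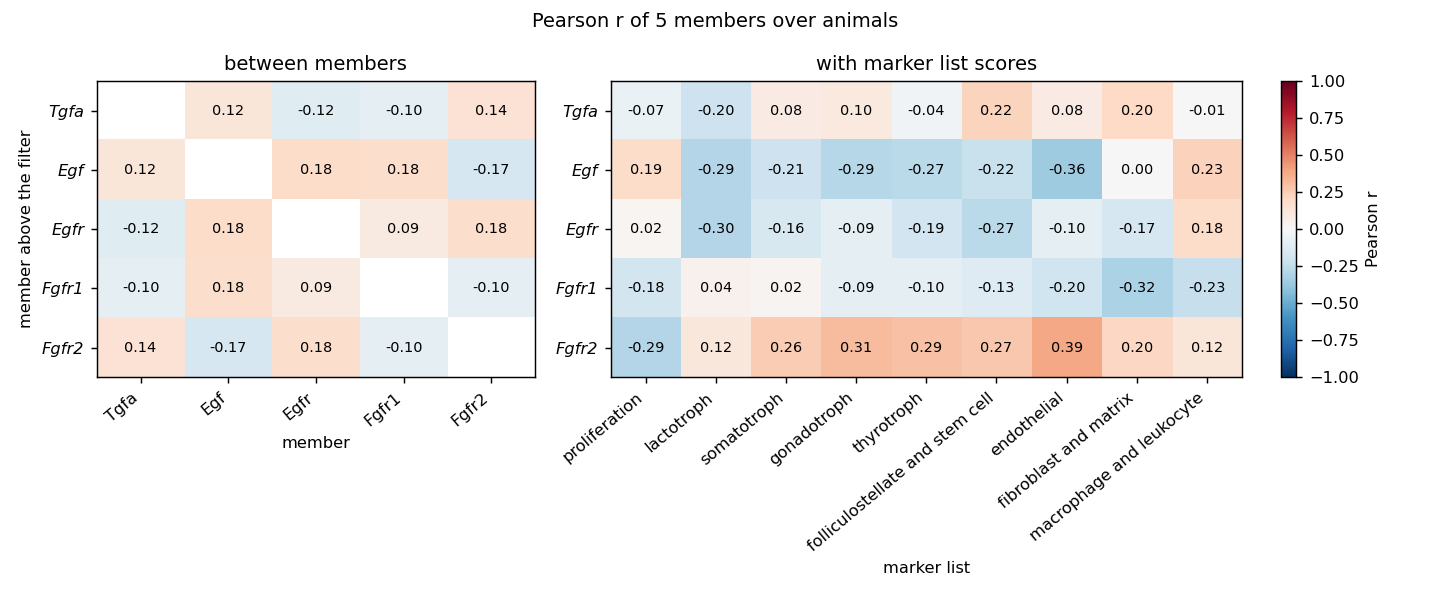
Pearson r over animals (colours from -1 to 1) among the 5 genes above the filter (left) and between these genes and the scores of 9 marker lists (right). Relations of Fgfr1 leave out animal 43 and those of the proliferation score leave out animal 38, and the highest r shown is 0.39, between Fgfr2 and the endothelial score.

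The 5 genes were next set against scores of 9 marker lists, 1 of mitotic genes and 8 of cell types of the gland, each score being the mean centred log2 level of the listed genes above the filter. Of 45 relations 1 was called (limma, adjusted p under 0.05), 7 had an unadjusted p under 0.05 and 6 a permutation p under 0.05. The share of all probe sets called on a score was 2.37% for proliferation, 1.39% for lactotroph, 14.2% for somatotroph, 25.6% for gonadotroph and 28.6% for thyrotroph genes. It was 10.7% for folliculostellate and stem cell, 19% for endothelial, 2.98% for fibroblast and matrix and 0.11% for macrophage and leukocyte genes. For the gonadotroph score the 25.6% were made up of 13% with a positive and 12.5% with a negative slope, and for the thyrotroph score of 14% and 14.6%, and none of the 5 genes was called on either.

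None of the 5 genes was called on the proliferation score by limma, on which 1.22% of all probe sets were called with a positive slope and 1.15% with a negative one. Animal 38 was left out, because its score of -0.85 lay apart from the next lowest at -0.34. The lowest adjusted p among the 5 was that of Fgfr2, 0.26 (limma), with an r of -0.291 over 42 animals (permutation p = 0.0612) and a rho of -0.286 (permutation p = 0.0669). This r was -0.25 without the 2 animals of the most extreme scores, -0.187 in animals 1 to 22 and -0.123 in animals 23 to 43.

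Egfr had an r of 0.0187 with the proliferation score (permutation p = 0.907), with -0.201 in animals 1 to 22 and 0.616 in animals 23 to 43, and the difference between these was not tested. For Egf the r was 0.186 (permutation p = 0.237) and for Tgfa -0.0654 (permutation p = 0.681). For Fgfr1 it was -0.181 without animal 43 as well.

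The called relation was that of Fgfr2 with the endothelial score, on which 9.34% of all probe sets were called with a positive slope and 9.71% with a negative one. The score holds 5 of 9 endothelial genes with a probe set (Kdr, Tek, Plvap, Esam and Emcn), while Pecam1, Flt1, Tie1 and Vwf were below the filter. Over 43 animals the r was 0.39 (permutation p = 0.0099) and the rho 0.433 (permutation p = 0.00398), with a slope of 0.56 ± 0.20 (SE) log2 units per unit of score and an adjusted p of 0.0468 (limma). With the 2 most extreme scores left out the r was 0.452. It was 0.14 in animals 1 to 22 and 0.314 in animals 23 to 43, smaller than over all animals in both.

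Of the genes in that score, Kdr, a receptor of endothelial cells for vascular endothelial growth factor, had an r of 0.546 with Fgfr2. Tek, the angiopoietin receptor, had 0.35, and Emcn, Plvap and Esam had 0.246, 0.194 and 0.0564. With Kdr left out of the list, a choice made after seeing the data, the r was 0.331 and the adjusted p 0.0991 (limma). With no filter, where the score also took in the 4 dim endothelial genes, the r was 0.215 and the adjusted p 0.545 (limma). The call was also lost with quantile normalization and with array medians subtracted (adjusted p = 0.058 and 0.0941; limma). It was lost as well with array quality or a smooth trend over animal number in the fit (0.11 and 0.603), with a step between animals 22 and 23 (adjusted p = 0.662), without animal 43 (0.0823) and without animal 38 (0.0679). It held without animals 1 to 6 (0.00778; limma). The score lay between -0.386 and 0.128 in animals 1 to 22 and between -0.00763 and 0.285 in animals 23 to 43, and the part of the animal number in the relation was not tested.

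**Figure D3:**
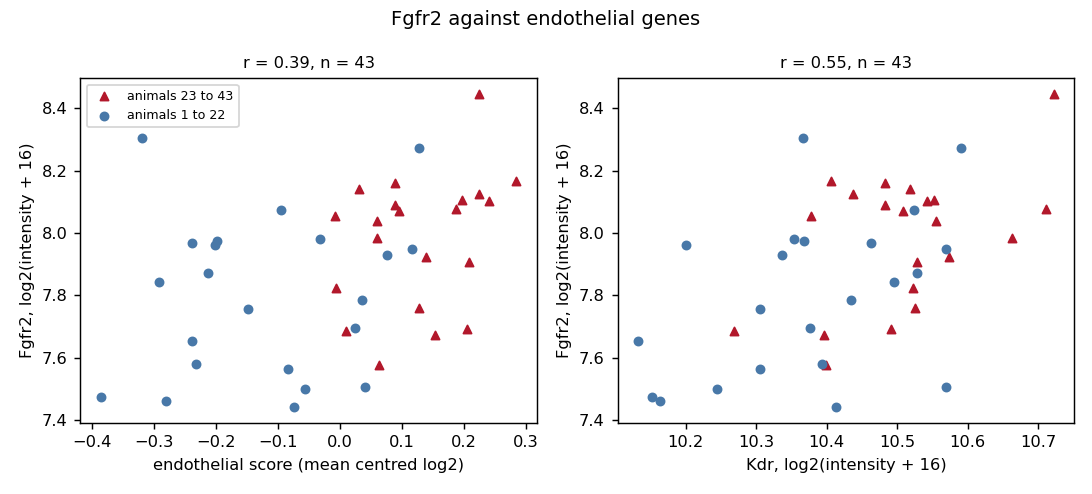
Log2 level of Fgfr2 (y axes) against the endothelial score (left, mean centred log2) and against the log2 level of Kdr (right) in 43 animals, with triangles for animals 23 to 43 and circles for animals 1 to 22. The r is 0.39 with the score and 0.55 with Kdr, and the triangles lie towards the upper end of the score.

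Egf had a negative r with the endothelial score, -0.358 (permutation p = 0.0184), and a rho of -0.338 (permutation p = 0.0279), but was not called, at an adjusted p of 0.0716 (limma). It was called with quantile normalization (r = -0.433, adjusted p = 0.0197) and with array medians subtracted (r = -0.479, adjusted p = 0.00877; limma). Over the values as deposited the r was -0.38 without the 2 most extreme scores, -0.163 in animals 1 to 22 and -0.275 in animals 23 to 43. Animal 43 had the highest score, at 0.285, and a low Egf level, at 7.91, and without it the r was -0.312. Egf was not called by limma without animal 43, or with the step or the smooth trend over animal number in the fit. For Egfr and the lactotroph score (Prl, Drd2, Pou1f1 and Agtr1b) the r was -0.296 (permutation p = 0.0545) and the rho -0.265 (permutation p = 0.0871), at an adjusted p of 0.286 (limma). That r was -0.235 without the 2 most extreme scores, -0.292 in animals 1 to 22 and -0.396 in animals 23 to 43. None of the 5 genes was called on the lactotroph score by limma, and its 4 genes had a mean r of -0.103 with each other, so that the score does not stand for markers that vary together.

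Many probe sets followed the first Egfr probe set. It was called with 473 of them (limma), 2.49% of all with a positive slope and 0.561% with a negative one. Over 43 animals and 9406 genes, the 3 with the highest r were Ddx6, an RNA helicase (0.864), Bmpr2, a receptor for bone morphogenetic proteins (0.847), and Nedd4, a ubiquitin ligase (0.803). The lowest r was that of C12h12orf43, at -0.667.

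Animals 1 to 6 lay at the upper end of this pattern. Their Egfr levels were between 10.34 and 10.54, with a median of 10.44, and those of the other 37 animals between 9.00 and 10.33, with a median of 9.83. The ranges did not overlap. Values of all 6 above those of every other animal were seen for 8 of 15521 probe sets (0.0515%), and below them for 0. Ddx6 was 12.21 to 12.51 in animals 1 to 6 and 10.45 to 12.44 in the others, with 2 of the 6 above all others. The second Egfr probe set was 9.54 to 9.98 in animals 1 to 6 and 9.14 to 9.90 in the others, with 1 of the 6 above all others. The set of 6 animals was chosen after seeing the data, so these ranges are a description.

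Without animals 1 to 6 the r of Egfr was 0.797 with Ddx6, 0.8 with Bmpr2 and 0.718 with Nedd4, and 84 probe sets were called (limma). The count was 598 within animals 1 to 22 and 13 within animals 23 to 43. On the second Egfr probe set 0 were called by limma, with 1615 at an unadjusted p under 0.05. The r of both Egfr probe sets was 0.151 without animals 1 to 6. The pattern was therefore that of the first probe set, and which of them follows the transcript more closely was not tested.

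**Figure D4:**
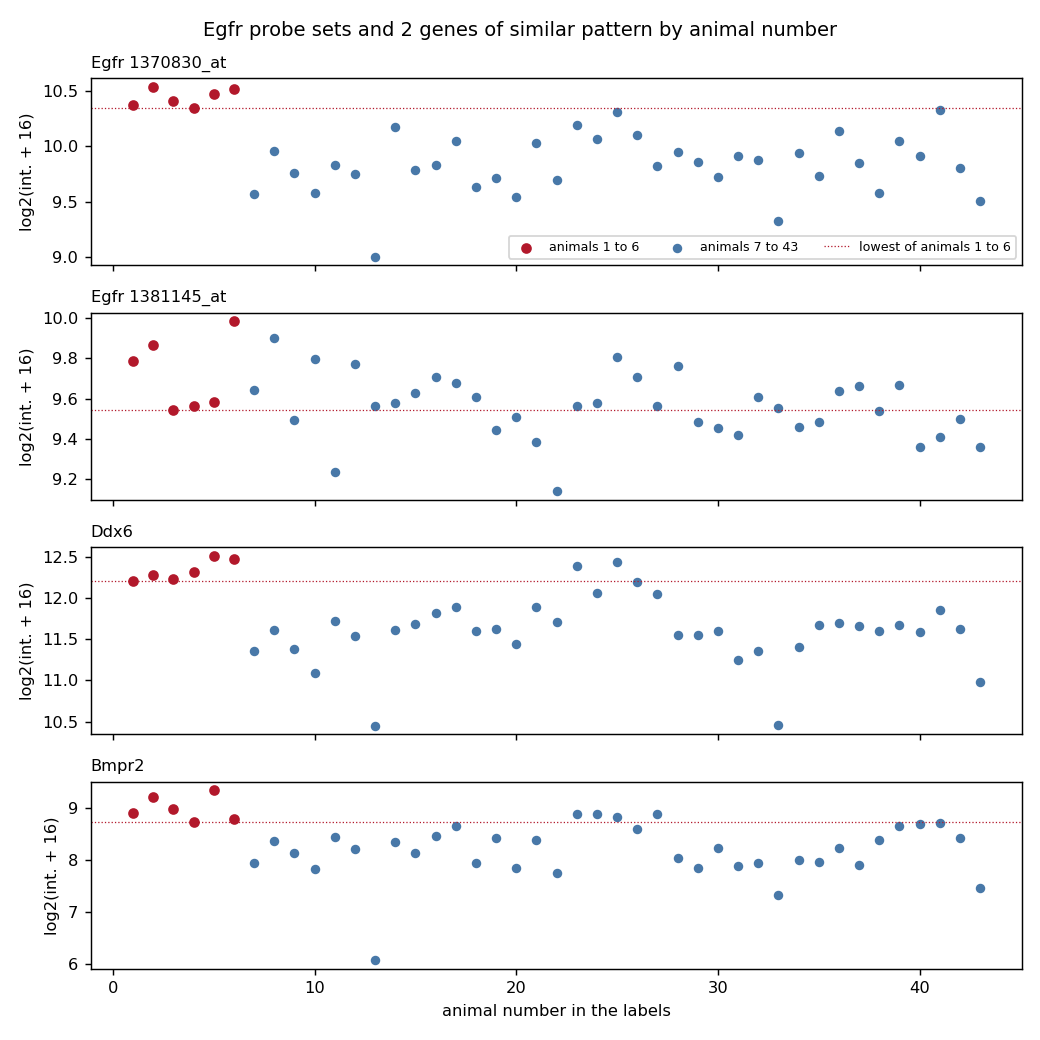
Log2(intensity + 16) of both Egfr probe sets above the filter, of Ddx6 and of Bmpr2 (y axes) against animal number (x axis), with animals 1 to 6 in red and a dotted line at their lowest value. Animals 1 to 6 hold the 6 highest values of the first Egfr probe set, from 10.34 to 10.54, and 1 of them exceeds all other animals for the second.

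On Egf, 152 probe sets were called (limma), 0.419% of all with a positive slope and 0.561% with a negative one. The highest r were those of Syne2, which links the nucleus to the cytoskeleton (0.695), Nktr (0.667) and Dhrs1 (0.63), and the lowest that of the ribosomal protein gene Rpl37a (-0.701). For Syne2 the r was 0.762 in animals 1 to 22 and 0.587 in animals 23 to 43. The count depended on the samples. It was 94 without animal 43, 87 without animal 38, 28 without animals 1 to 6, 4 with the step between animals 22 and 23 in the fit, and 0 by limma in animals 1 to 22 and in animals 23 to 43, with 980 and 2438 at an unadjusted p under 0.05.

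On the other genes limma called few or none, namely 0 on Tgfa, Fgfr2, Erbb2 and Erbb3 and 1 on each of Areg and Fgf2 (0.00644% of all probe sets for each). At an unadjusted p under 0.05 there were 1047 on Tgfa, 1896 on Fgfr2, 1138 on Erbb2 and 2469 on Erbb3. On Fgfr2 the count was 31 without animals 1 to 6 and 2 with array quality in the fit. As a description over 43 animals, the highest r were those of Tp53bp1 with Tgfa (0.534), Ccng2 with Areg (0.522), Syt6 with Erbb3 (0.602), Ttc39a with Fgf2 (0.612) and Nicol1 with Fgfr2 (0.564). Next for Fgfr2 came Zfp277 (0.552) and the endothelial gene Kdr (0.546).

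On Fgfr1 the most probe sets were called, and nearly all calls rested on animal 43. Over 43 animals 5640 were called (limma), 22.8% of all with a positive slope and 13.6% with a negative one. Without animal 43 there were 5, and by ranks over 43 animals 53. The genes with the highest r over 43 animals were Necap1 and Ap3d1, which act in vesicle transport, and Pik3r2, a PI3 kinase subunit, and that with the lowest was Scfd1. In the 42 other animals the r was 0.571 for Necap1, 0.43 for Ap3d1, 0.503 for Pik3r2 and -0.654 for Scfd1.

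Animal 43 lay outside the range of all others for these genes. It was at 10.37 for Necap1, with 10.88 to 11.26 in the others, and at 13.96 for Scfd1, with 12.38 to 13.26 in the others. Its 3′ to 5′ difference of actin was also the highest, as given above. With the 3′ to 5′ differences of actin and GAPDH in the fit, 2025 probe sets (13% of all) were called on Fgfr1 (limma). The cause of the calls was not tested.

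**Figure D5:**
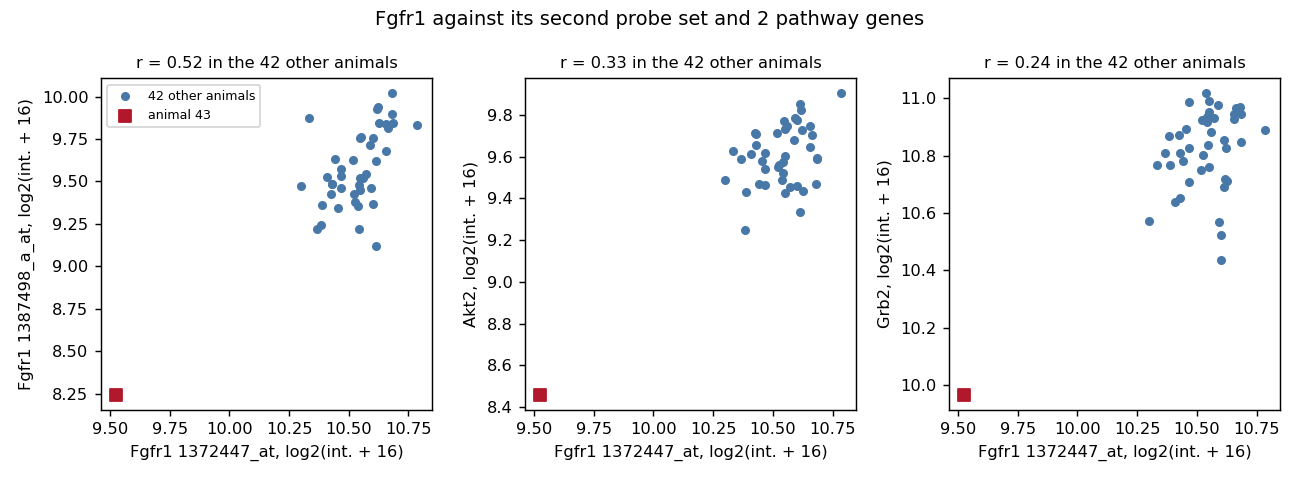
Log2(intensity + 16) of the second Fgfr1 probe set, Akt2 and Grb2 (y axes) against that of the first Fgfr1 probe set (x axes) in 43 animals, with animal 43 as a red square. It lies apart in each panel, and in the 42 other animals r is 0.52 for the second probe set, 0.33 for Akt2 and 0.24 for Grb2.

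The pathway around these genes was described with 96 further genes in 7 lists by role. A probe set was found for 81, and 46 of them passed the filter, 56.8%, where 66.2% of all genes did. Adaptors and kinases passed for 17 of 18 genes, among them Grb2 and Sos1, which link receptors to Ras. Regulators of the EGF receptor passed for 5 of 6, including Lrig1 (10.67 ± 0.20) and Errfi1 (8.94 ± 0.23; SD, n = 43), which restrain it. Of the proteases that release ligands, Adam10 (7.69 ± 0.45) and Adam17 (9.17 ± 0.17) passed.

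Few other ligands passed. Among the other EGF and neuregulin ligands it was Btc, betacellulin (7.65 ± 0.45), and Nrg1, neuregulin 1 (7.16 ± 0.47), 2 of 6 genes with a probe set. Among the other FGFs it was Fgf9 (9.35 ± 0.21), Fgf12 (7.67 ± 0.34) and Fgf13 (10.56 ± 0.49; SD, n = 43), 3 of 21, of which the last 2 encode proteins that are not secreted. Of the other FGF receptors and coreceptors 5 of 9 passed, namely Fgfr3 (7.65 ± 0.26), the syndecans Sdc1, Sdc2 and Sdc4 and the glypican Gpc1, which carry heparan sulphate. Feedback inhibitors and targets of ERK passed for 11 of 16, including Spry1 (9.39 ± 0.35), Dusp6 (10.59 ± 0.21) and Egr1 (10.67 ± 0.34; SD, n = 43).

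On Egf 0 of these 46 genes were called by limma, and their median r was 0.135, with 0.0387 over all probe sets tested. On Tgfa 0 were called, with a median r of 0.047 and 0.0177 over all, and on Fgfr2 0, with -0.00839 and -0.0045. On Egfr the median r of the 46 was 0.0599, with -0.0126 over all. For the 11 feedback inhibitors and ERK targets the median r was 0.24 on Egf, 0.167 on Egfr, 0.0132 on Tgfa and -0.14 on Fgfr2, and 0 of them were called on any of these by limma. Their mean centred level was lowest in animal 43, at -0.67, with the next lowest at -0.21. That animal was also low for Egf (7.91, with a median of 8.39) and for Egfr (9.51, with a median of 9.88). Among the 11, the highest r with Egf was 0.36 (Etv5) over 43 animals and 0.271 (Ier3) without animal 43.

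On Egfr 1 of the 46 was called, Frs2, the docking protein of FGF receptors, where 3.05% of all probe sets were, so the count is near that of all features. Its r was 0.564 (permutation p = 8.00e-05) and its rho 0.543 (permutation p = 0.00021), with a slope of 0.22 ± 0.06 (SE) and an adjusted p of 0.0164 (limma). The r was 0.565 without the 2 animals farthest in Egfr, 0.74 in animals 1 to 22 and 0.264 in animals 23 to 43. Without animals 1 to 6 it was 0.313 (adjusted p = 0.662) and with the second Egfr probe set 0.23 (adjusted p = 0.628; limma), so the call was lost in both. Without animal 43 Map2k2, an ERK pathway kinase, and Akt1 were called as well, with r of -0.523 and -0.519 and adjusted p of 0.026 and 0.0282 (limma). Over 43 animals their r were -0.325 and -0.275, and neither was called. Without animal 43, 3 of 45 pathway genes were called on Egfr, where 4.38% of all probe sets were, so that count too is near that of all features. The r of Map2k2 was -0.629 in animals 1 to 22, 0.0616 in animals 23 to 43 and 0.0492 with the second Egfr probe set, and that of Akt1 -0.639, 0.0723 and 0.197, so the sign was not kept.

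On Fgfr1 21 of the 46 were called over 43 animals, 19 with a positive slope and 2 (Sdc2 and Fgf12) with a negative one, where 22.8% and 13.6% of all probe sets were. Among them were the kinase gene Akt2, the adaptor gene Grb2, Socs5, which limits EGF receptor signalling, and the feedback genes Dusp5, Etv5 and Spry1. Without animal 43, 0 of the 45 that then passed were called by limma, where 0.0322% of all probe sets were. By ranks over 43 animals 0 of the 46 were called, where 0.342% of all were. Lrig1 had a positive slope over 43 animals (0.45) and a negative one without animal 43 (-0.07). The lowest adjusted p without animal 43 was 0.121, for the ubiquitin ligase gene Cblb (r = 0.457). For Akt2 animal 43 was at 8.46 and the others were between 9.25 and 9.90.

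On the proliferation score 1 of the 46 pathway genes was called over 42 animals, Sdc1, a heparan sulphate carrier of the cell surface. The share of all probe sets called on this score was 2.37%, so the count is near that of all features. Its r was 0.516 (permutation p = 0.00069) and its rho 0.47 (permutation p = 0.00188), with a slope of 1.23 ± 0.31 (SE) and an adjusted p of 0.0332 (limma). The r was 0.47 without the 2 most extreme scores, 0.529 in animals 1 to 22 and 0.222 in animals 23 to 43.

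The 10 nearest genes above the filter, 5 on each side of a gene in RefSeq order, were compared with it as a description. The r lay between -0.312 and 0.112 around Tgfa on chromosome 4, between -0.593 and 0.152 around Egf on chromosome 2, and between -0.409 and 0.448 around Egfr on chromosome 14. It lay between -0.237 and 0.195 around Fgfr2 on chromosome 1 and between -0.388 and 0.351 around Areg on chromosome 14. The highest of the last belonged to Btc, the gene of another Egfr ligand, with a rho of 0.45. Over genes of other chromosomes the 5th to 95th percentile of r was -0.232 to 0.249 for Areg, and 8 of its 10 neighbours lay inside. Around the other genes 7 (Egfr) to 10 (Fgfr1 and Fgfr2) of 10 lay inside their own range. The highest r of a neighbour was 0.465 for Fgf2, 0.441 for Erbb3, 0.336 for Erbb2 and 0.579 for Fgfr1. The r of that same neighbour with Fgfr1 was 0.203 without animal 43.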

How the data were processed

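Anterior pituitary RNA of 43 animals was hybridised to 1 array each. The deposited values are linear intensities, which the authors had scaled to a common trimmed mean (2% at each end, 500.0 on every array). The sources used here do not name the software behind them. Intensities were kept as deposited, 16 was added and the log2 was taken. Of 31099 probe sets, 57 were controls, 20832 had 1 gene symbol, updated through the GRCr8 RefSeq table (99.7% of gene identifiers matched), and 15521 had a mean above the median of probe sets that were not controls. No columns were identical. Each array is a separate animal.

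The level of each gene, or the mean centred level of the passing genes of a marker list, was the predictor in a regression of every passing probe set with limma 3.58.1 in R 4.3.3 (lmFit and eBayes), with Benjamini-Hochberg adjustment over all probe sets of a fit and a threshold of 0.05. A pair of genes was called when both of its fits passed. Permutation tests were 2-sided with 100000 permutations. Distributions were described as clusters where the Bayesian information criterion was lower by more than 10 for 2 normal components than for 1 (mclust 6.1.1). The fits were tested on simulated data of 43 arrays. They recovered 100% of slopes of 1 residual SD and 21% of slopes of 0.5 residual SD, with 13 false calls. Relations of the smaller size can therefore be missed, and a relation that was not called is not shown to be absent.

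The genes and lists were chosen with earlier results of these data known. Named genes are the 9 genes, the 3 genes of highest r with each, and up to 4 pathway genes of lowest adjusted p per list and comparison. C12h12orf43, Rpl37a and Scfd1 (lowest r), the pathway genes named for their level, and Btc as a neighbour of Areg were chosen after their values were seen. In all, 15 other settings listed at the outset and others added after seeing the data were tried. Sequences are from RefSeq, build GRCr8.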

Additional observations from a re-analysis of the deposited data

How the results depend on the processing

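No pair of the 5 genes that could be tested was called under the 15 alternatives listed at the outset and the 2 added later. Of the 10 pairs, 1 could be tested with the stricter filter, 3 with the second probe set and 6 with the mean of probe sets, since Fgfr2 and others were then below the filter. The 1 called relation with a marker list became 0 with no filter, with array quality, the smooth trend or the step over animal number in the fit, within animals 1 to 22 or 23 to 43, without animal 43 and without animal 38. It became 3 with array medians subtracted, without animals 1 to 6 and with the second probe set, and 2 with the mean of probe sets and by ranks. Fgfr2 with the endothelial score was among these without animals 1 to 6 and by ranks. With array medians subtracted the calls were of Egf and Fgfr1, with the mean of probe sets of Fgfr1, with quantile normalization (1) of Egf with the endothelial score, and with the stricter filter (1) of Egfr with the folliculostellate and stem cell score. With the second Fgfr1 probe set the 3 were negative relations of Fgfr1 with the gonadotroph, thyrotroph and endothelial scores (r = -0.473, -0.544 and -0.427). With the step in the fit their adjusted p were 0.474, 0.0985 and 0.605 (limma). Without animal 43, which was lowest for this probe set, their r were -0.469, -0.465 and -0.359. The adjusted p were then 0.0106, 0.0128 and 0.0892 (limma), so the call with the endothelial score was lost.

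The count of probe sets called on Egf, 152, became 2 with no filter, 2 with quantile normalization, 16 with medians subtracted, 5 with quality, 6 with the trend, 4 with the step, 0 in animals 1 to 22 and in animals 23 to 43, 94 without animal 43, 87 without animal 38, 50 by ranks and 28 without animals 1 to 6. That on Egfr, 473, became 286 with a stricter filter, 212 with the trend, 13 in animals 23 to 43, 2 with the mean of probe sets, 287 by ranks, 84 without animals 1 to 6 and 0 with the second probe set. That on Fgfr1, 5640, became 2025 with quality, 3622 with the trend, 33 in animals 1 to 22, 5 without animal 43 and 53 by ranks. The 21 pathway genes called on Fgfr1 became 6 with quality (13% of all probe sets were called in that fit) and 13 with the trend (23.3%). They became 0 in animals 1 to 22 (0.213% of all), without animal 43 (0.0322%) and by ranks (0.342%). These counts thus fell along with the share over all probe sets. The stricter filter and the ranges of animal numbers test fewer probe sets or animals, and for the rest the cause was not tested. Among the 21 pathway genes, Lrig1 changed sign without animal 43. Dim probe sets limit Areg, Erbb2, Erbb3 and Fgf2, for which a low value has no lower bound beyond the added 16. No paired analysis was possible because all arrays form 1 group.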

Other observations

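Fgf13, which encodes an intracellular member of the FGF family, varied between animals with the scores of several marker lists. With the gonadotroph score (Fshb, Lhb, Gnrhr, Nr5a1 and Cga) it had an r of 0.89 and a rho of 0.865 over 43 animals (permutation p = 1e-05 for each, the smallest they can give) and an adjusted p of 3.47e-13 (limma). The r was 0.896 without the 2 most extreme scores, 0.541 in animals 1 to 22 and 0.643 in animals 23 to 43, and with a step between animals 22 and 23 in the fit the adjusted p was 0.0215. With the thyrotroph score (Tshb and Trhr) the r was 0.814, 0.584 in animals 1 to 22 and 0.432 in animals 23 to 43, and the adjusted p with the step was 0.0317 (limma). Over 43 animals Fgf13 was also called on the somatotroph (r = 0.815), endothelial (0.705), folliculostellate and stem cell (0.672) and fibroblast and matrix (0.566) scores, and not on the lactotroph score (r = 0.368, adjusted p = 0.162; limma). With the endothelial score the r was 0.399 in animals 1 to 22 and -0.0883 in animals 23 to 43. With the step in the fit its adjusted p was 0.501 (limma), so that call was lost. For the somatotroph, folliculostellate and stem cell, and fibroblast and matrix scores such values are not given here. Fgf13 was chosen after its values were seen.

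Some feedback inhibitors and targets of ERK had negative slopes on the gonadotroph, thyrotroph and endothelial scores. Of the 11 above the filter, 7 were called with a negative slope on the gonadotroph, 7 on the thyrotroph and 7 on the endothelial score over 43 animals (limma), and 0 with a positive one, where 12.5%, 14.6% and 9.71% of all probe sets were called with a negative slope. Spry1, an inhibitor of receptor signalling, had an r of -0.696 with the gonadotroph score, Etv5, a transcription factor induced by ERK, -0.603, and Dusp5, a phosphatase of ERK, -0.621. Dusp6, also a phosphatase of ERK, had 0.0249, Myc 0.114, Spry2 0.32 and Egr1 0.338, and none of these was called. On the somatotroph score 4 of the 11 had a called negative slope and 2 a called positive one (limma). Of all probe sets 14.2% were called on that score with either slope. On the folliculostellate and stem cell score 4 were called, all negative, where 10.7% of all were called with either slope. On the fibroblast and matrix score 0 were called by limma (2.98% of all).

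Within the ranges of animal numbers the r of the 11 genes with the gonadotroph score lay between -0.658 and 0.321 in animals 1 to 22 and between -0.388 and 0.0667 in animals 23 to 43. For Spry1 it was -0.119 in animals 1 to 22 and -0.227 in animals 23 to 43, and for Ier3, an early response gene, -0.658 and -0.069. With the step in the fit, limma called 0 of the 11 with a negative slope on the gonadotroph score. It called 1 (Fos) on the thyrotroph and 0 on the endothelial score. Of all probe sets 0.116%, 1.86% and 0.0129% were called with a negative slope in these fits, so few calls were left over the whole table. Without animal 43 there were 7, 7 and 5 of the 11, and the shares over all probe sets are not given here for that setting. Without animal 43, Spry2 (adjusted p = 0.0149) and Egr1 (adjusted p = 0.0124) were called with a positive slope on the gonadotroph score (limma). That score lay between -0.784 and -0.115 in animals 1 to 22 and between -0.138 and 0.667 in animals 23 to 43, and what the animal number stands for was not tested. The genes of this paragraph and the last were chosen after their values were seen.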
